A study of Mus musculus with 3 samples.

Results

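Fgf20, the 3 Fgf receptor genes Fgfr1, Fgfr2 and Fgfr3, and the 5 Fgf feedback and target genes Dusp6, Etv4, Etv5, Spry2 and Spry4 were followed through single-cell RNA counts of mouse embryonic back skin epithelium. The 9 genes were listed by name, and all 9 were among the 14656 genes that both deposited tables held. All embryos were wild-type C57BL/6JOlaHsd mice of age E14.5, a stage with primary hair placodes in the back skin. Per the labels' protocols, Dispase II freed the epithelial sheets, each sample pooled 3 to 4 embryos of a litter, and live cells were sorted after staining for MAdCAM-1, a surface adhesion molecule. The 2 placode-enriched libraries held MAdCAM-1-positive cells, and the 1 total epithelium library held live epithelial cells without that gate. All 3 libraries shared genotype, strain and age, and 10x Genomics Chromium 3' chemistry, version 2, counted unique molecular identifiers (UMIs), each standing for 1 captured RNA molecule. The design asks how placode cells differ from the other cells of the epidermis.

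A hair placode is a local thickening of the embryonic epidermis that forms over a cluster of dermal cells, the dermal condensate. Fgf20 is a secreted growth factor of the Fgf9 subfamily, known in mouse skin as a placode signal that acts on the dermis below and is induced downstream of the ectodysplasin and Wnt pathways. Fgfs bind receptor tyrosine kinases together with heparan sulfate, and each of Fgfr1, Fgfr2 and Fgfr3 can be spliced into a form typical of epithelium and a form typical of mesenchyme, which counts from the 3' end of a transcript do not tell apart. Bound receptors activate the kinase ERK through Ras. ERK signalling raises the ETS transcription factors Etv4 and Etv5 and a set of its own inhibitors, among them the ERK phosphatase Dusp6 and the Sprouty proteins Spry2 and Spry4, so that these 5 transcripts are widely read as a response to Fgf signals. Other receptor tyrosine kinases use the same relay.

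All 9 genes are protein-coding in the GENCODE annotation of the build GRCm38. Fgf20 lies at chr8:40279166-40308331 on the minus strand and Fgfr1 at chr8:25513654-25575718 on the plus strand. Fgfr2 lies at chr7:130162451-133123350 on the minus strand, a span that in this annotation also covers other genes, on the same and on the other strand. Fgfr3 lies at chr5:33721674-33737068 on the plus strand. Dusp6 lies at chr10:99263231-99267489 on the plus strand. Etv4 lies at chr11:101769742-101785371, Etv5 at chr16:22381309-22439719 and Spry2 at chr14:105891947-105896819, all 3 on the minus strand. Fgf20 overlaps Micu3 on the other strand, and Fgfr1 and Fgfr3 overlap 1 non-member transcript each there (Gm16159 and G630022F23Rik). The strand setting of the counting was not given in the sources used here, so whether reads of such pairs were told apart is not known.

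RefSeq promoters were at hand for 5 of the 9 members. Those of Dusp6 and Spry2, feedback inhibitors that both stood higher in placode-like cells, are shown because ETS factors such as Etv4 and Etv5 bind sites with the core GGAA. Each line gives the 250 bases before the start site, 5' to 3', in GRCm38.p6, with matches to AGGAAG or CCGGAAG on either strand in capitals. The motifs share the letters GGAAG with a different base before them, so the same GGAAG cannot count for both.
Dusp6, chr10:99262981-99263230, plus strand: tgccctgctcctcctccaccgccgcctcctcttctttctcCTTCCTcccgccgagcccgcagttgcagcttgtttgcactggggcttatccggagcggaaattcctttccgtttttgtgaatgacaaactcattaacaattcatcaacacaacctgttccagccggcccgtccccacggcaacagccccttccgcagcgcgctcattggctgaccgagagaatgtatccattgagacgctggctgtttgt
Spry2, chr14:105896820-105897069, minus strand: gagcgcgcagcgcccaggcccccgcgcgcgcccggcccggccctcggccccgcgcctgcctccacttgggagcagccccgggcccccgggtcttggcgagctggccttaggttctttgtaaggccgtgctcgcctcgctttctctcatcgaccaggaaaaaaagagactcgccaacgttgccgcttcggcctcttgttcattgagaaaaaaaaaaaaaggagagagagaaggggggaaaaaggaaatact
Dusp6 held 1 match to AGGAAG, read from the other strand as CTTCCT, and 0 to CCGGAAG, and Spry2 held 0 of either. Among the 32851 RefSeq promoter windows of the same length, 29.5% held AGGAAG and 6.91% held CCGGAAG. The match in Dusp6 is therefore only a description, and whether an ETS factor binds there was not tested.

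The placode-enriched libraries held 1511 and 1571 cells and the total epithelium library 1601, at a median of 21642, 23419 and 21975 UMIs a cell. The libraries shared 1 or 2 cell barcodes a pair. Doublet calling removed 4, 2 and 18 cells, which is a low rate, and further doublets may be among the cells kept. Cells were grouped into 13 clusters without the 9 genes, and 4 clusters met 7 or 8 of the 8 placode markers (Dkk4, Edar, Shh, Bmp2, Wnt10b, Lhx2, Prdm1 and Foxi3). The sum of these markers was 857, 756 and 909 UMIs per 1000000 (CPM) in placode-like cells of placode-enriched libraries 1 and 2 and the total epithelium library, against 81.9, 64.2 and 73.5 CPM in basal epidermis-like cells. This order of libraries is kept in what follows. The placode-like class held 679, 763 and 56 cells and the basal epidermis-like class 411, 439 and 1084. Clusters 6 and 10 held nearly all basal epidermis-like cells of the placode-enriched libraries, and clusters 0 and 2 those of the total epithelium library, so the basal class was not the same population under the 2 gates. Among the placode-like clusters, cluster 7 had 1 fibroblast marker, Col1a2, and no placode marker among its 10 leading genes. Results on this class were also computed without cluster 7. The member Fgfr1 was also among the leading genes of cluster 7, so this setting leaves out cells high in Fgfr1. Cluster 5 had no placode marker among its leading genes either and was kept. The 2 placode-enriched libraries are biological replicates per the series design, and each value rests on pooled embryos.

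Fgf20 was higher in placode-like than in basal epidermis-like cells. It stood at 94.0, 77.0 and 107 CPM in placode-like cells, against 2.41, 2.53 and 8.89 CPM in basal epidermis-like cells. Every placode-like value lay above every basal value, and the highest basal value was that of the total epithelium library. The difference came to a log2 fold change of 4.34 ± 0.19 (SE, adjusted p = 7.88e-09, edgeR's quasi-likelihood test with Benjamini-Hochberg adjustment, 3 libraries with the library as a block). In this comparison all 9 members passed the filter on low counts and all 9 passed the test, 7 higher and 2 lower in placode-like cells, where 38.5% of all 6108 genes tested passed in either direction, 19.3% higher and 19.2% lower. Suprabasal-like cells, the layer above the basal one, held 0, 0 and 5 Fgf20 UMIs in 21, 21 and 307 cells. The 3 unnamed clusters together held Fgf20 at 19.6, 12.7 and 71.4 CPM, so the transcript was not confined to the placode-like class.

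Within the placode-like class Fgf20 was uneven from cell to cell. To compare cells at 1 depth, each was thinned to 10000 UMIs, which left out 39, 45 and 0 shallower placode-like cells. An Fgf20 UMI was then found in 41.6%, 36.1% and 48.2% of placode-like cells, against 3.21%, 2.56% and 4.55% of basal epidermis-like cells. Suprabasal-like cells were set beside these as a background, though free RNA itself was not measured. Their shares were 0 of 21 cells in each placode-enriched library, which allows up to 14.3% (3 cells of 21), and 0.336% in the total epithelium library. Unthinned, 51.8%, 50.9% and 53.6% of placode-like cells held an Fgf20 UMI. Cells without an Fgf20 UMI made up 58.4%, 63.9% and 51.8% after thinning, where a Poisson count of the same mean would leave 37.5%, 45.8% and 28.7%, and single cells reached 16, 8 and 9 UMIs. Fgf20 transcripts were therefore held by fewer cells, at more UMIs each, than an even spread of the same total would give.

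The genes whose cell-to-cell pattern was most like that of Fgf20 over placode-like cells were Dkk4, a secreted Wnt antagonist, and Bmp2, a secreted growth factor, both also among the markers that named the class. Over 640, 718 and 56 cells, Pearson's r with Fgf20 on log counts was 0.51, 0.49 and 0.71 for Dkk4 and 0.49, 0.41 and 0.53 for Bmp2. Phlda1, Vdac3, Btg1, Sp5, Trib1 and Gadd45g followed among the 9120 genes compared, each with r of at least 0.24 in every library. Sp5 is a transcription factor induced by Wnt signals. Cells of 1 library share their pool and their preparation, so these values describe the libraries.

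Receptor transcripts differed between placode-like and basal epidermis-like cells in opposite directions. Fgfr1 stood at 51.8, 47.6 and 51.2 CPM in placode-like cells, against 14.9, 13.0 and 4.87 CPM in basal epidermis-like cells. Fgfr2, the receptor best known for the epidermis, stood at 82.0, 86.6 and 67.4 CPM in placode-like cells, against 136, 147 and 138 CPM in basal epidermis-like cells. Neither gene's values overlapped between the classes. Fgfr1 was higher by a log2 fold change of 2.02 ± 0.16 (SE, adjusted p = 1.32e-06, edgeR) and Fgfr2 was lower, at -0.79 ± 0.06 (adjusted p = 4.17e-07, edgeR). Fgfr3 stood at 5.03, 4.23 and 4.74 CPM in placode-like cells, against 6.79, 6.60 and 8.13 CPM in basal epidermis-like cells. Its log2 fold change of -0.56 ± 0.16 (SE, adjusted p = 0.0131, edgeR) lost its call with DESeq2 (adjusted p = 0.141), with thinned cells (adjusted p = 0.0898), without placode-enriched library 1 (-0.68, adjusted p = 0.107) and without placode-enriched library 2 (-0.52, adjusted p = 0.217), all but the first with edgeR.

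Receptor shares within a class remove the sequencing depth. Of the UMIs of the 3 receptor genes, Fgfr1 took 37.3%, 34.4% and 41.5% in placode-like cells, against 9.43%, 7.79% and 3.22% in basal epidermis-like cells. Fgfr1 thus averaged 37.7 ± 3.61% in placode-like cells and 6.81 ± 3.22% in basal epidermis-like cells (SD, n = 3 libraries each), a difference of 30.9 percentage points with no overlap. The two-sided exact permutation test of 3 against 3 values gave p = 0.1, the smallest it allows. Since each library gave a value of both classes, the values are paired, and the exact permutation within the 3 pairs gave p = 0.25, again the smallest it allows, with Fgfr1 higher in 3 of 3 libraries. Without cluster 7 the difference was 21.7 percentage points. Fgfr2 remained the larger share in placode-like cells, at 59.1%, 62.6% and 54.6% of receptor UMIs, against 86.3%, 88.2% and 91.4% in basal epidermis-like cells. Shares of UMIs from 3' ends are not shares of protein or of full transcripts, since genes differ in how well their ends are captured.

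**Figure D1:**
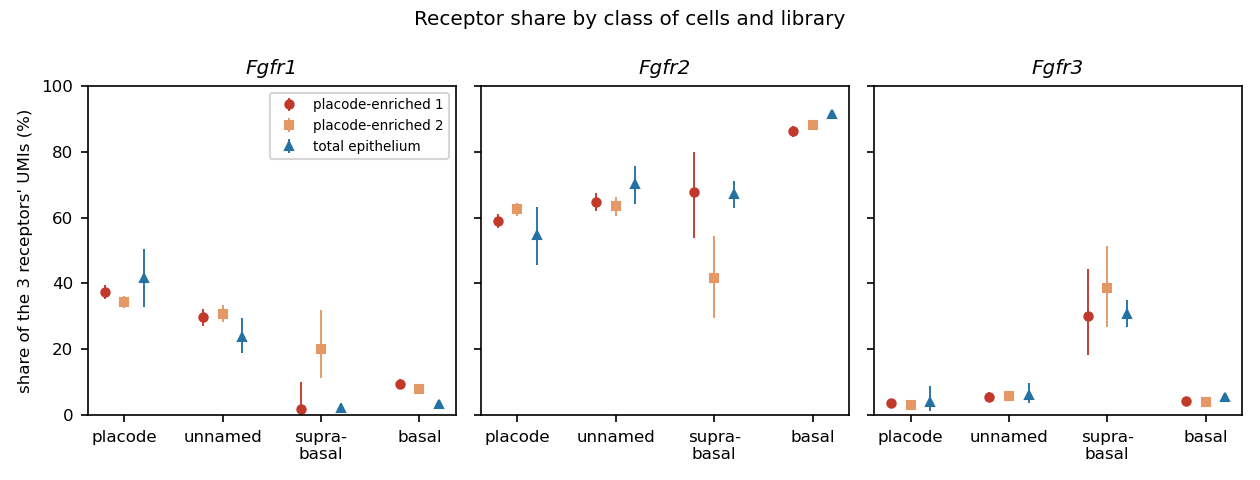
Share of the UMIs of Fgfr1, Fgfr2 and Fgfr3 (percent, vertical axis) by class of cells and library, with exact 95% binomial intervals that cover counting error only. Placode-like cells had 34.4% to 41.5% Fgfr1, basal epidermis-like cells at most 9.43%, and suprabasal-like cells 30.2% to 38.5% Fgfr3.

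Cells thinned to 10000 UMIs showed the same receptors side by side. Both Fgfr1 and Fgfr2 were found in 20.5%, 19.6% and 14.3% of placode-like cells, against 10.9%, 10.0% and 2.32% of basal epidermis-like cells. An Fgfr1 UMI without an Fgfr2 UMI was found in 14.7%, 15.9% and 21.4% of placode-like cells, against 3.70%, 3.95% and 1.77% of basal epidermis-like cells. Over placode-like cells, Pearson's r between Fgfr1 and Fgfr2 was 0.05, 0.06 and -0.06, so a cell's count of the first said little about its count of the second. The genes most like Fgfr1 across these cells were Wif1, a secreted Wnt inhibitor, Ncam1, an adhesion molecule that can bind Fgf receptors, Pdgfa and Ly6h, with r of 0.23 to 0.44. With Fgfr2 the closest genes, Hmgb1, Col27a1, Irx2 and Hist1h2ae, had r of 0.09 to 0.16. These depended on the marker rule, since with placode-like clusters from 4 of 8 markers the closest were Sostdc1, with r of 0.21, 0.22 and 0.21, Krt5, Cxcl14 and Pdgfa, a setting chosen after seeing the data.

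The feedback and target genes stood higher in placode-like cells without exception. Dusp6 stood at 582, 536 and 665 CPM in placode-like cells, against 123, 109 and 60.3 CPM in basal epidermis-like cells, a log2 fold change of 2.59 ± 0.16 (SE, adjusted p = 1.29e-07, edgeR). The classes lay far apart, and the lowest basal value was again that of the total epithelium library. Etv4 stood at 108, 107 and 112 CPM in placode-like cells, against 25.9, 24.7 and 10.1 CPM in basal epidermis-like cells. Etv5 stood at 64.3, 65.9 and 61.7 CPM in placode-like cells, against 22.4, 19.4 and 11.9 CPM in basal epidermis-like cells. Both ETS factors had placode-like values that differed little between libraries, and their log2 fold changes were 2.29 ± 0.16 and 1.73 ± 0.10 (SE, adjusted p = 2.58e-07 and 8.11e-08, edgeR). Over placode-like cells the genes most like Dusp6 were Trps1, Wif1, Ltb and Pthlh, with r of 0.23 to 0.45.

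The Sprouty genes followed at lower counts. Spry2 stood at 40.8, 35.7 and 43.6 CPM in placode-like cells, against 23.5, 16.5 and 22.7 CPM in basal epidermis-like cells. Its log2 fold change of 0.94 ± 0.09 (SE, adjusted p = 3.27e-06, edgeR) was smaller than those of Dusp6, Etv4 and Etv5. Spry4 stood at 4.42, 4.35 and 6.64 CPM in placode-like cells, from 65, 76 and 7 UMIs, against 0.945, 1.46 and 0.483 CPM in basal epidermis-like cells. Neither gene's classes overlapped, and the log2 fold change of Spry4 was 2.13 ± 0.34 (SE, adjusted p = 0.000353, edgeR). For both genes and for Fgf20, Fgfr1, Fgfr2, Dusp6, Etv4 and Etv5 the call held in all 15 alternatives run on this comparison. With the unnamed clusters counted as basal epidermis-like, the log2 fold changes came down to 1.64 for Dusp6, 1.44 for Etv4, 1.05 for Fgfr1 and 0.94 for Spry4.

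**Figure D2:**
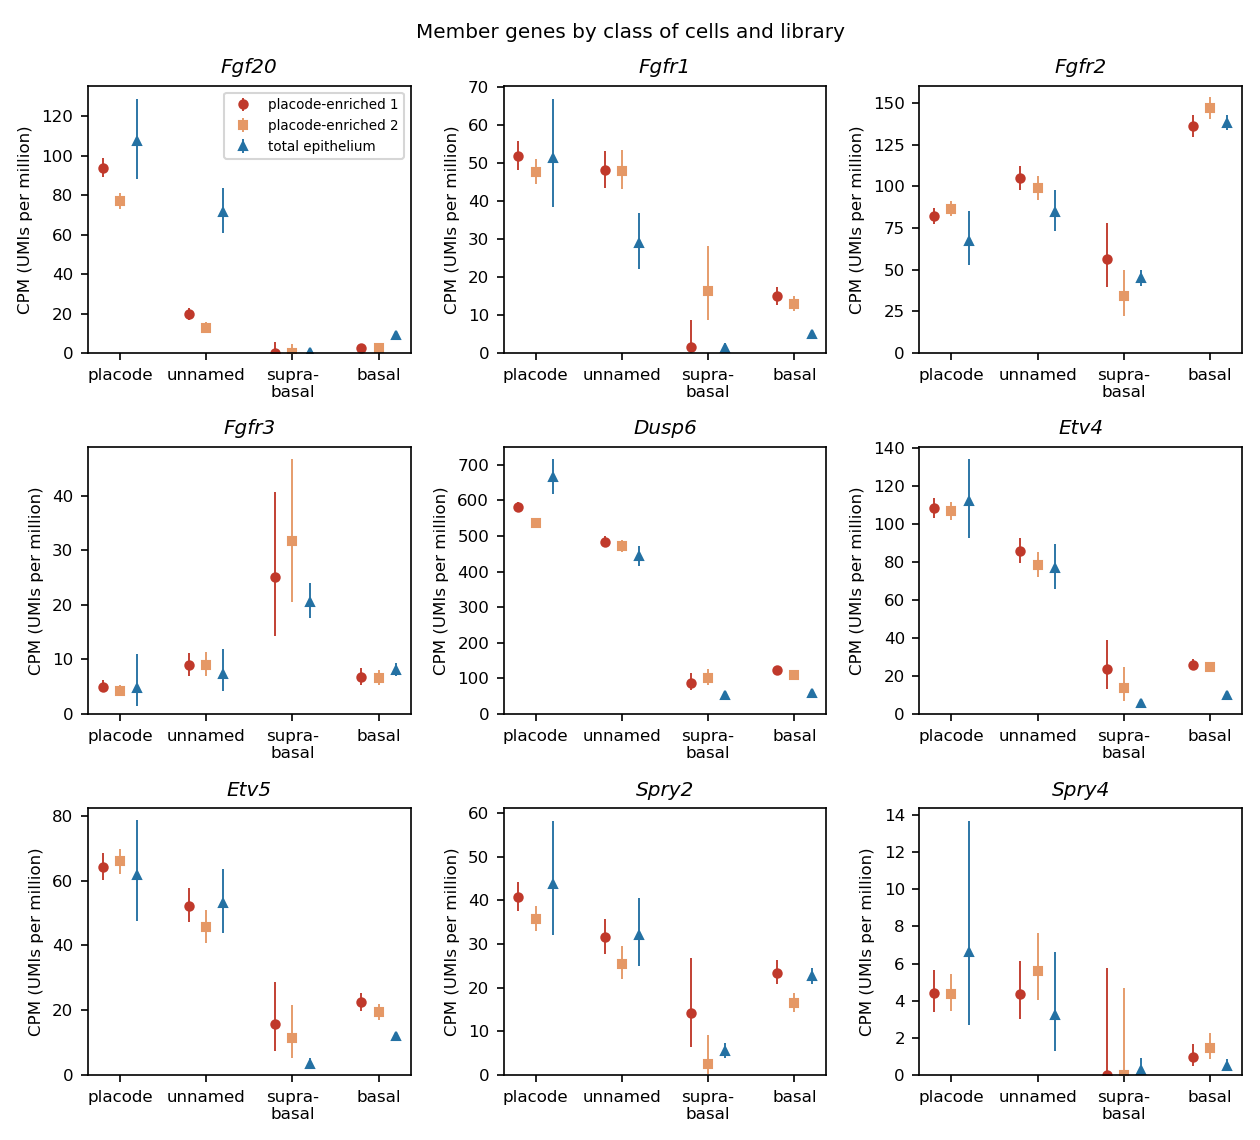
Level of each gene (CPM, linear vertical axes that start at 0) by class of cells, with 1 point for each of the 3 libraries and exact 95% Poisson intervals that cover counting error only. Fgf20, Fgfr1, Dusp6, Etv4, Etv5, Spry2 and Spry4 were higher and Fgfr2 lower in placode-like than in basal epidermis-like cells, and Fgfr3 was highest in suprabasal-like cells.

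Several sums of genes listed as markers of other cell types moved with the same contrast. A sum does not show which cells made the transcripts, and Krt18 and Cd74 were also among the leading genes of placode-like cluster 1. Of 8 fibroblast markers 6 were in both tables, and their sum was 1268, 1146 and 1502 CPM in placode-like cells, with 0, 1 and 0 of them at 0, against 776, 665 and 828 CPM in basal epidermis-like cells, with none at 0. Of 6 dermal condensate markers 4 were in both tables, with none at 0 in either class, and their sum was 139.8, 145 and 158 CPM in placode-like cells, against 15.3, 17.8 and 8.09 CPM in basal epidermis-like cells. Trps1, one of the genes most like Dusp6 over cells, had the highest level of them in placode-like cells of every library. The sum of 50 cell cycle genes was 7659, 7180 and 7244 CPM in placode-like cells, against 8147, 7911 and 6868 CPM in basal epidermis-like cells. Immune markers (3 of 5 in both tables, led by Cd74, with 1 at 0 in the total epithelium library's placode-like cells) came to 126, 115 and 110.1 CPM in placode-like cells, against 38.8, 39.5 and 13.6 CPM in basal epidermis-like cells. Periderm markers (5 of 5, led by Krt17) came to 1121, 943 and 1175 CPM in placode-like cells, with 0, 1 and 2 at 0, against 366, 368 and 183 CPM in basal epidermis-like cells, with 1 at 0 in each library. Merkel cell markers (2 of 5, led by Krt18, none at 0) came to 35.7, 39.2 and 43.6 CPM in placode-like cells, against 7.90, 8.98 and 4.87 CPM in basal epidermis-like cells. Melanoblast markers (5 of 6) were at most 8.54 CPM in placode-like cells, and endothelial, muscle and erythroid markers, with 1 gene each, were at most 4.74 CPM there. Schwann cell markers (4 of 4) came to 9.72, 11.0 and 6.64 CPM in placode-like cells, against 10.9, 11.9 and 11.1 CPM in basal epidermis-like cells. The part of these transcripts in the differences above was not tested.

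Other genes of the pathway were counted by role, beside the 19.3% of all genes that were higher and the 19.2% that were lower, and differences between the lists were not tested. Of 8 receptor-binding partners and co-receptors tested, 5 were higher and 1 was lower in placode-like than in basal epidermis-like cells. Ncam1 was higher by 1.89 on the log2 scale, and Nrp1, Flrt1, Flrt2 and Flrt3 were higher by 1.44, 0.72, 1.55 and 1.35. Fgfbp1, a secreted protein that releases Fgfs from the matrix, stood at 73.6, 56.5 and 122 CPM in placode-like cells, against 306, 259 and 508 CPM in basal epidermis-like cells (log2 fold change -2.12, adjusted p = 5.4e-11, edgeR). Of 16 other feedback inhibitors 6 were higher, among them Spry1 (1.01), Dusp4 (1.51) and Il17rd (1.48), and 5 were lower, among them Lrig1 (-0.83) and Rasa3 (-1.48). Of 13 other ERK-induced transcripts 7 were higher, among them Etv1 (2.20), Phlda1 (1.20) and Elk3 (2.59), and 4 were lower, among them Fos (-1.91) and Myc (-1.36).

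Of 19 genes for heparan sulfate enzymes and proteoglycans 5 were higher and 4 were lower in placode-like cells, and the glypicans Gpc1, Gpc3 and Gpc4 were higher by 0.91, 0.91 and 1.43 on the log2 scale. Of 18 receptor adaptors and Ras-ERK relay genes 2 were higher, among them Map2k1 (0.58), 2 were lower and 14 did not pass. The median log2 fold change was 1.04 for receptor partners, 0.54 for other ERK-induced transcripts, 0.08 for other feedback inhibitors, 0.02 for heparan sulfate genes and 0.00 for the relay, beside 0.00 over all genes tested. Of 21 other Fgf ligand genes 5 were in both tables and 3 were tested, of which Fgf11 was lower (-0.60, adjusted p = 0.0497, edgeR).

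Among placode-like cells, Fgfr1 fell as Fgf20 increased. In cells with 0, 1, 2 to 3 and 4 or more Fgf20 UMIs among 10000, Fgfr1 stood at 71.1, 34.9, 27.2 and 8.33 CPM in placode-enriched library 1. The same steps gave 62.3, 37.9, 31.0 and 14.0 CPM in placode-enriched library 2. In the total epithelium library, with 29, 8, 12 and 7 cells, they gave 86.2, 25, 25 and 0 CPM, from 25, 2, 3 and 0 Fgfr1 UMIs. The count of 0 in 7 cells allows up to 42.9 CPM (3 UMIs). At 4 or more Fgf20 UMIs the values of the placode-enriched libraries rested on 4 and 6 Fgfr1 UMIs. In each library the cells without an Fgf20 UMI had the highest Fgfr1 level and those with 4 or more had the lowest.

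Taken as 552 Fgf20-detected against 862 Fgf20-undetected placode-like cells, Fgfr1 stood at 27.4, 31.3 and 18.5 CPM in Fgf20-detected cells, against 71.1, 62.3 and 86.2 CPM in Fgf20-undetected cells. The groups did not overlap, and the log2 fold change was -1.19 ± 0.13 (SE, adjusted p = 1.13e-13, edgeR), lower in 3 of 3 libraries. In this comparison 1 of the 8 members tested was higher and 2 were lower, where 2.97% and 3.09% of all 4885 genes passed in those directions and 6.06% in either. Fgf20 chose the groups and was not tested. An Fgfr1 UMI was found in 22.6%, 24.7% and 14.8% of Fgf20-detected cells, against 44.1%, 41.6% and 55.2% of Fgf20-undetected cells. Over cells, r between the 2 genes was -0.25, -0.19 and -0.41.

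The difference in Fgfr1 kept its call in all 17 alternatives run, with log2 fold changes from -1.52 to -0.93. It came to -1.09 without cluster 7, to -0.98 with library and cluster as the block, and to -0.93 in cells under the median share of cell cycle UMIs. The clusters of a library are not independent samples, so the p of the cluster-blocked fit is too small and is not given. Other measures moved with the Fgf20 steps. The share of UMIs from cell cycle genes was 0.775%, 0.707% and 0.753% at 0 Fgf20 UMIs and 0.578%, 0.499% and 0.526% at 4 or more. Fibroblast markers had a sum of 1151, 1080.0 and 1483 CPM at 0 Fgf20 UMIs and 1708, 1300.0 and 1557 CPM at 4 or more. Between these, the sums were 1413, 1288 and 875 CPM at 1 UMI and 1575, 1414 and 2058 CPM at 2 to 3. The rise was thus steady only in placode-enriched library 1. The part of the fibroblast transcripts in the difference was not tested, nor was that of the cell cycle beyond the low-cycle cells.

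Fgfr2 stood at 69.9, 62.2 and 74.1 CPM in Fgf20-detected cells, against 88.2, 92.2 and 51.7 CPM in Fgf20-undetected cells. It was lower in both placode-enriched libraries and higher in the total epithelium library, where the groups held 20 and 15 UMIs. Its log2 fold change of -0.38 ± 0.10 (SE, adjusted p = 0.00554, edgeR) lost its call without placode-enriched library 1 (-0.45, adjusted p = 0.222) and without placode-enriched library 2 (-0.24, adjusted p = 0.616), and in 5 other alternatives. Fgfr3 had 7, 6 and 2 UMIs in Fgf20-detected cells, against 30, 22 and 2 UMIs in Fgf20-undetected cells. Its log2 fold change of -1.20 ± 0.44 (SE) had an adjusted p of 0.0946 with edgeR, and of 0.0325 without the total epithelium library.

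Among the feedback genes, Dusp6 was higher with Fgf20 in the main fit and Etv4, Etv5, Spry2 and Spry4 did not pass the test. Dusp6 stood at 632, 608 and 629.6 CPM in Fgf20-detected cells, against 584, 537 and 703 CPM in Fgf20-undetected cells. The groups overlapped and the total epithelium library went the other way. The log2 fold change of 0.15 ± 0.05 (SE, adjusted p = 0.0200, edgeR) lost its call in 10 of 17 alternatives, among them without placode-enriched library 1 (0.10) and without placode-enriched library 2 (0.06, adjusted p = 0.966). Etv4 stood at 102, 98.1 and 119 CPM in Fgf20-detected cells, against 109, 112 and 100.0 CPM in Fgf20-undetected cells. Etv5 stood at 62.4, 60.6 and 48.1 CPM in Fgf20-detected cells, against 63.6, 67.1 and 79.3 CPM in Fgf20-undetected cells. Both genes' groups lay close together in the placode-enriched libraries and further apart in the total epithelium library, and Etv5 had no overlap. The 95% intervals of their log2 fold changes ran from -0.26 to 0.07 for Etv4 and from -0.30 to 0.12 for Etv5, and that of Spry2 from -0.14 to 0.36. These bounds are for the estimate over all 3 libraries and not for a single library. The differences of Etv4 and Etv5 in the total epithelium library lay outside them. Spry4 had 7, 8 and 1 UMIs in Fgf20-detected cells, against 27, 31 and 3 UMIs in Fgf20-undetected cells, and its log2 fold change of -1.25 ± 0.42 (SE) had an adjusted p of 0.0527 with edgeR. The estimate is of the size of that of Fgfr1, and it passed with edgeR in 4 of 11 alternatives, at an adjusted p of 0.0325 without the total epithelium library, 0.0222 at clustering resolution 0.5, 0.0348 at resolution 2 and 0.0143 with placode-like clusters from 4 of 8 markers, with a range of -1.41 to -0.99. In cells with 0, 1, 2 to 3 and 4 or more Fgf20 UMIs, Spry4 stood at 7.22, 4.76, 1.09 and 0 CPM in placode-enriched library 1 and at 6.75, 5.17, 1 and 2.33 CPM in placode-enriched library 2, each of the last 2 steps from at most 1 UMI.

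**Figure D3:**
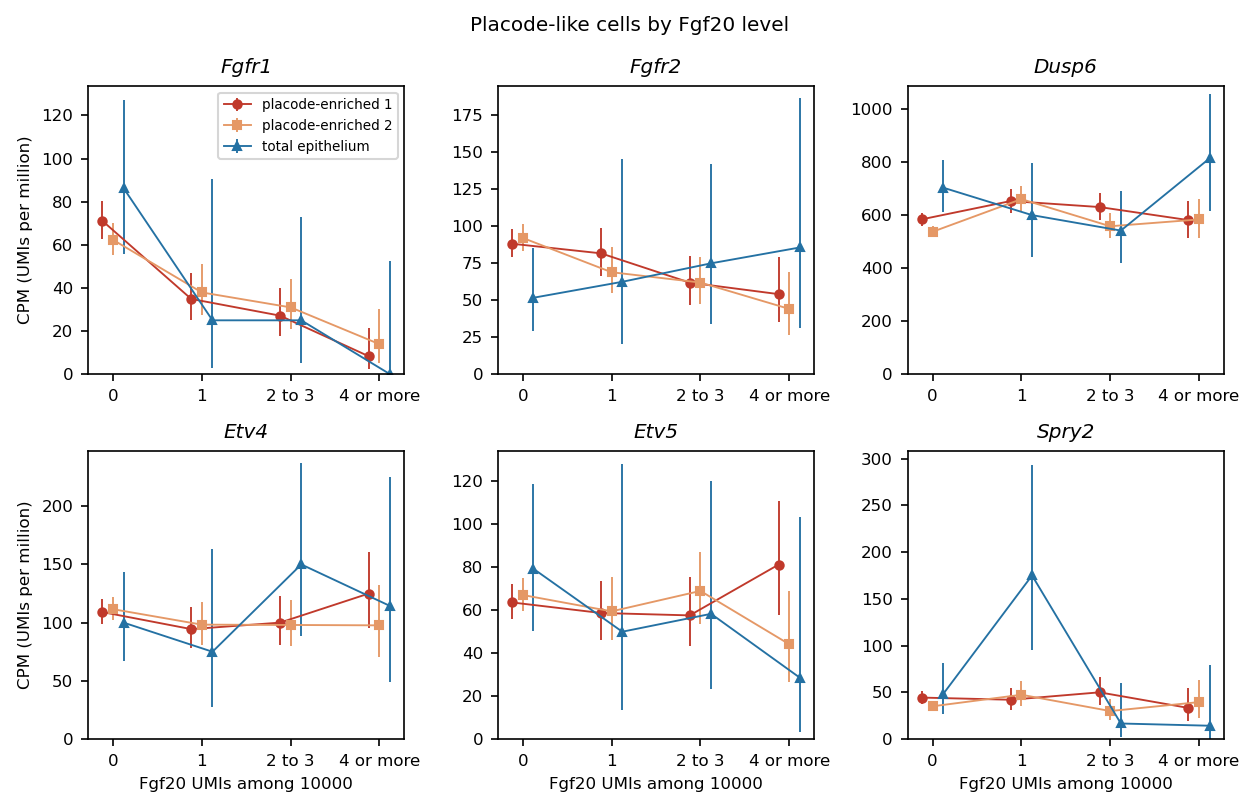
Level of 6 genes (CPM, linear vertical axes that start at 0) in placode-like cells by the number of Fgf20 UMIs among 10000, with 1 line for each library and exact 95% Poisson intervals that cover counting error only. Fgfr1 was highest at 0 Fgf20 UMIs in all 3 libraries, while Dusp6 stayed between 537 and 814 CPM across the steps.

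Of 10 other ERK-induced transcripts in the same comparison 2 were higher (Phlda1 and Ier2) and 2 were lower (Ccnd1 and Phlda3). Phlda1 stood at 350.4, 343 and 526 CPM in Fgf20-detected cells, against 165, 176 and 186 CPM in Fgf20-undetected cells (log2 fold change 1.08, adjusted p = 7.1e-33, edgeR). Of 6 receptor partners 1 was higher (Flrt3, 0.34) and 3 were lower (Ncam1, Fgfbp1 at -0.47 and Flrt1 at -0.38). Ncam1 stood at 45.1, 50.6 and 29.6 CPM in Fgf20-detected cells, against 81.6, 85.6 and 96.6 CPM in Fgf20-undetected cells (-0.81, adjusted p = 1.4e-09, edgeR), in the direction of Fgfr1. Of 13 other feedback inhibitors 0 were higher and 1, Dusp7, was lower, of 15 heparan sulfate genes 1, Gpc4, was higher and 0 were lower, and of 17 relay genes 0 were higher and 1, Hras, was lower. Ccnd1, a cyclin gene, was lower, with a log2 fold change of -0.85.

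Placode-like cells without an Fgf20 UMI still held the feedback transcripts above the basal level. Dusp6 stood at 584, 537 and 703 CPM in Fgf20-undetected placode-like cells, against 133, 112 and 63.2 CPM in basal epidermis-like cells, all thinned to 10000 UMIs. There was no overlap, and the log2 fold change was 2.45 ± 0.11 (SE, adjusted p = 5.86e-18, edgeR). Of the 8 members tested 6 were higher and 1 was lower, where 11.6% and 11.5% of all 5344 genes passed in those directions and 23.1% in either. Etv4, Etv5, Spry2 and Spry4 were higher by 2.12, 1.72, 0.90 and 2.65 on the log2 scale, Fgfr1 was higher by 2.27, and Fgfr2 was lower, at -0.73. Fgfr3 had a log2 fold change of -0.26 ± 0.28 (SE, adjusted p = 0.584, edgeR). The call of Spry2 ended with the second set of clustering genes (0.60, adjusted p = 0.0825, edgeR). With the unnamed clusters counted as basal epidermis-like, the log2 fold change of Dusp6 was 1.28 and that of Fgfr1 was 1.11, both still called. At this depth a cell without an Fgf20 UMI can still hold Fgf20 RNA.

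**Figure D4:**
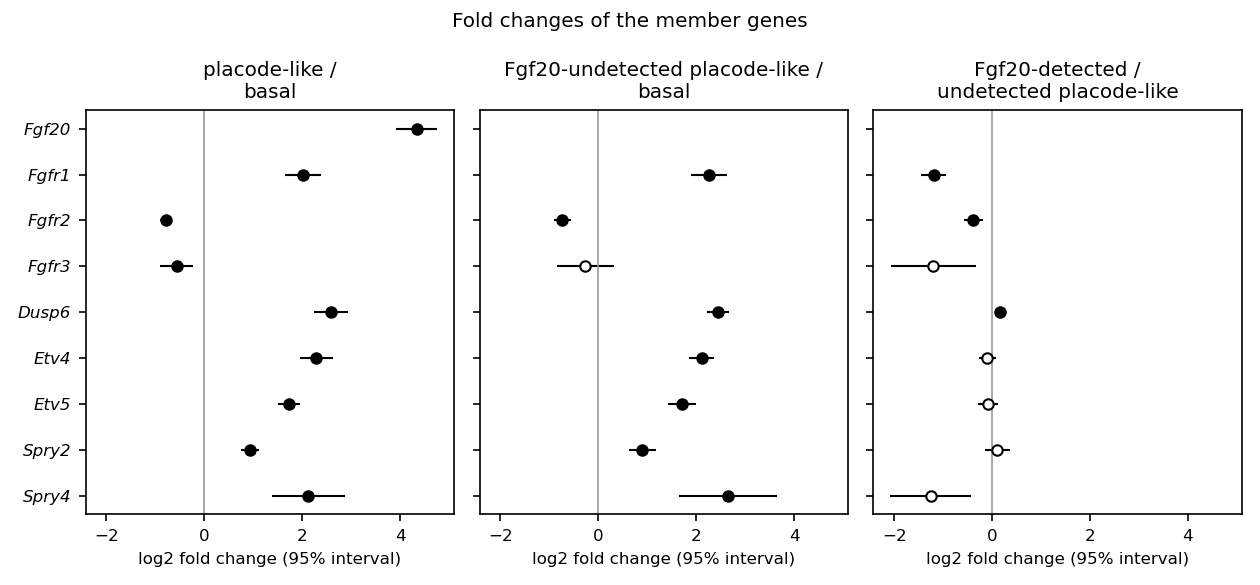
Log2 fold changes of the members with 95% intervals (horizontal axis, shared by the 3 panels) for placode-like against basal epidermis-like cells, Fgf20-undetected placode-like against basal epidermis-like cells, and Fgf20-detected against Fgf20-undetected placode-like cells. Filled points passed an adjusted p of 0.05 with edgeR. Dusp6 stood at 2.59 and 2.45 in the first and the second panel and at 0.15 in the third, while Fgfr1 stood at 2.02, 2.27 and -1.19.

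Placode-like cells were also divided by the receptor UMIs found in them after thinning, 220 Fgfr1-only cells against 478 Fgfr2-only cells. Fgfr2 had 516, 584 and 35 UMIs over 640, 718 and 56 thinned placode-like cells, so there were fewer Fgfr2 UMIs than cells. At this depth a cell without a UMI of a receptor can still hold RNA of that receptor. The names therefore describe the UMIs found and not the absence of a receptor. Fgf20 stood at 40.4, 60.5 and 33.3 CPM in Fgfr1-only cells, against 96.7, 71.7 and 250 CPM in Fgfr2-only cells. The groups did not overlap, though placode-enriched library 2 had values close to each other. The log2 fold change was -0.90 ± 0.18 (SE, adjusted p = 0.000998, edgeR), and 1 of 5 members tested passed, in the lower direction, where 0.538% of all 3902 genes passed lower, 0.974% higher and 1.51% in either direction. The call ended in 9 of 15 alternatives, among them without placode-enriched library 1 (-0.79, adjusted p = 0.328), without placode-enriched library 2 (-1.61, adjusted p = 0.107) and without cluster 7 (-0.51, adjusted p = 0.350). This is the pair of genes already set against each other above, seen from the receptor's side, and no separate support for it.

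Between Fgfr1-only and Fgfr2-only cells, as named by the UMIs found, no feedback gene passed the test. Whether the feedback genes differ between cells that truly lack a receptor was not tested. Etv4 stood at 131, 132 and 117 CPM in Fgfr1-only cells, against 90.7, 95.1 and 137.5 CPM in Fgfr2-only cells. The groups overlapped through the total epithelium library, with 12 and 16 cells, and the log2 fold change was 0.42 ± 0.12 (SE, adjusted p = 0.0656, edgeR), and 0.45 (adjusted p = 0.0135, edgeR) without that library. Dusp6 stood at 679.8, 659.6 and 608 CPM in Fgfr1-only cells, against 584, 540.5 and 644 CPM in Fgfr2-only cells, with a log2 fold change of 0.18 ± 0.08 (SE, adjusted p = 0.381, edgeR), and 0.21 (adjusted p = 0.0130, edgeR) without the total epithelium library. Etv5 and Spry2 had 95% intervals from -0.34 to 0.31 and from -0.70 to 0.15 on the log2 scale. Fgfr3 and Spry4 did not pass the filter on low counts in this comparison.

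Single clusters spread these genes further, and they are described without a test because clusters 8 and 9 stayed unnamed by the marker rule. Cluster 11, led by Shh and Tgfb2, had Fgf20 at 139 CPM, Fgfr1 at 39.1 CPM and Dusp6 at 669 CPM over its 405 cells. Cluster 7, led by Crabp1, Fxyd6 and Wif1, had Fgf20 at 37.5 CPM, Fgfr1 at 80.4 CPM and Dusp6 at 570.3 CPM over its 370 cells. Cluster 11 was thus the richest in Fgf20 and cluster 7 the richest in Fgfr1 among the clusters shown.

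Cluster 8, led by Sprr2a3 and Dkk4, joined a high Fgf20 level to Dusp6 and Etv4 levels below those of placode-like cells. Its 28, 11 and 44 cells had Fgf20 at 101, 114 and 123 CPM in the 3 libraries, Fgfr1 at 9.09, 20.7 and 6.73 CPM, and Dusp6 at 274, 179 and 258 CPM. Fgf20 was above its placode-like level in each library, and Dusp6 lay between the placode-like and the basal epidermis-like values in every library. Cluster 9, led by Steap4, Wif1 and Sostdc1, a secreted Bmp and Wnt antagonist known around placodes, was the reverse. Its 298, 244 and 60 cells had Fgf20 at 11.2, 11.1 and 28.4 CPM, Fgfr1 at 63.0, 66.6 and 53.7 CPM, and Dusp6 at 546, 553 and 662 CPM, the Dusp6 values being close to those of placode-like cells. Etv4 stood at 58.4, 58.6 and 65.4 CPM in cluster 8 and at 101, 92.0 and 89.5 CPM in cluster 9. Its range over the libraries was 107 to 112 CPM in placode-like cells and 10.1 to 25.9 CPM in basal epidermis-like cells.

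**Figure D5:**
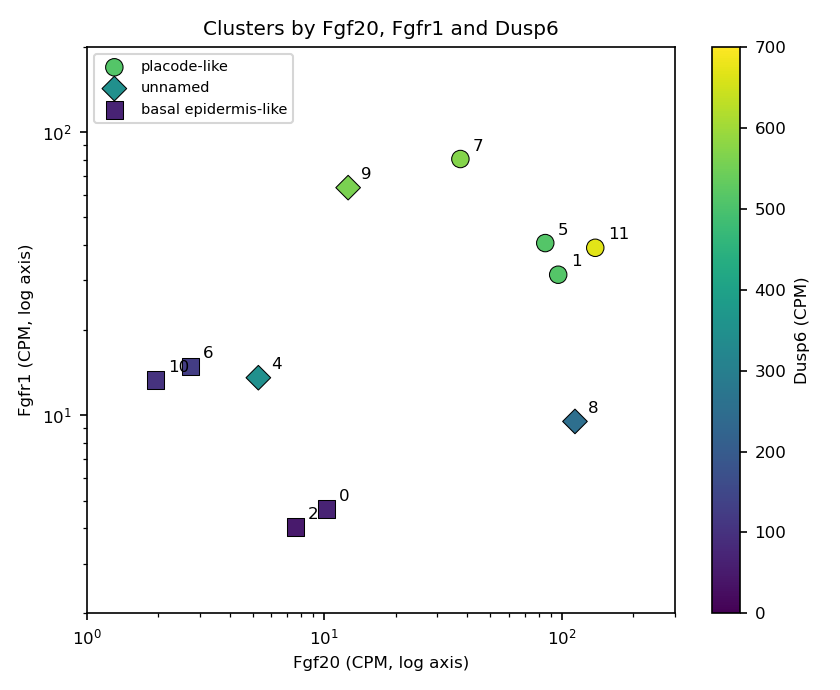
Fgf20 (CPM, horizontal log axis) and Fgfr1 (CPM, vertical log axis) of the placode-like, unnamed and basal epidermis-like clusters over all 3 libraries, with the cluster number beside each point and Dusp6 (CPM) as the colour. Cluster 8 had Fgf20 at 114 and Dusp6 at 253 CPM, and cluster 9 had Fgf20 at 12.6 and Dusp6 at 559 CPM.

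Above the basal layer the receptors changed again. Fgfr3 stood at 25.1, 31.6 and 20.6 CPM in suprabasal-like cells, against 6.79, 6.60 and 8.13 CPM in basal epidermis-like cells, and Fgfr2 at 56.4, 34.1 and 45.0 CPM in suprabasal-like cells, against 136, 147 and 138 CPM in basal epidermis-like cells. Neither gene overlapped between the layers. Fgfr3 was higher by a log2 fold change of 1.66 ± 0.21 (SE, adjusted p = 1.22e-09, edgeR) and Fgfr2 was lower, at -1.65 ± 0.11 (SE, adjusted p = 4.28e-21, edgeR), and both calls held in every alternative run. Fgfr3 took 30.2%, 38.5% and 30.7% of receptor UMIs in suprabasal-like cells, against 4.31%, 3.96% and 5.38% in basal epidermis-like cells, higher in 3 of 3 libraries (two-sided exact permutation within the 3 pairs, p = 0.25, the smallest possible). Of the 8 members tested 1 was higher and 7 were lower in suprabasal-like cells, where 17.1% and 19.5% of all 5857 genes passed in those directions and 36.6% in either.

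The other members tested were lower in suprabasal-like cells in the fit over all libraries, from fewer counts. Spry2 stood at 14.1, 2.53 and 5.47 CPM in suprabasal-like cells, against 23.5, 16.5 and 22.7 CPM in basal epidermis-like cells (log2 fold change -1.86 ± 0.23, SE, adjusted p = 3.73e-10, edgeR), without overlap. Fgf20 had a log2 fold change of -3.81 ± 0.56 (SE, adjusted p = 4.14e-08, edgeR), which rested on the total epithelium library, since without it the adjusted p was 0.118. Etv5 was lower, at -1.29 (adjusted p = 1.10e-05, edgeR), and without the total epithelium library stood at -0.67 (adjusted p = 0.181). Fgfr1, Etv4 and Dusp6 had log2 fold changes of -1.12, -0.64 and -0.26 (adjusted p = 0.00618, 0.00974 and 0.0375, edgeR) that lost their calls in 6 or 7 of 13 alternatives each, the exclusion of the total epithelium library among them (-0.54, -0.50 and -0.31, adjusted p = 0.466, 0.282 and 0.132). Without placode-enriched library 1 the calls of Fgfr1 (-0.81, adjusted p = 0.183) and Dusp6 (-0.17, adjusted p = 0.270) also ended, and without placode-enriched library 2 that of Etv4 (-0.57, adjusted p = 0.0525), while Fgfr1 came to -1.99. Dusp6 and Etv4 changed direction with the second set of clustering genes, to 0.96 and 0.45. The suprabasal-like class held 21 cells in each placode-enriched library.

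Placode-like and basal epidermis-like cells were also compared between the sorts. Between the placode-enriched libraries and the total epithelium library, 0 of 9 members passed in placode-like cells, where 0.574% of all 6277 genes passed (0.0956% higher and 0.478% lower) and 592 genes had an unadjusted p under 0.05 with edgeR. Fgfr2 was among these (log2 fold change 0.40, unadjusted p = 0.0460, adjusted p = 0.529, edgeR). The 95% interval of the log2 fold change was -0.64 to 0.13 for Fgf20 and -0.45 to 0.10 for Dusp6. This fit had 1 residual degree of freedom, assumed that the lone total epithelium library varied like the others, and set 1442 cells against 56. In basal epidermis-like cells 4 members were higher and 1 was lower in the placode-enriched libraries, where 7.47% and 5.75% of all 6143 genes passed in those directions and 13.2% in either. Dusp6 stood at 123 and 109 CPM in basal epidermis-like cells of the placode-enriched libraries, against 60.3 CPM in those of the total epithelium library (log2 fold change 0.99 ± 0.13, SE, adjusted p = 1.21e-11, edgeR).

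Fgfr1, Etv4 and Etv5 were also higher in the basal class of the placode-enriched libraries by 1.56, 1.38 and 0.85 on the log2 scale, and Fgf20 was lower, at -1.79 (adjusted p = 7.58e-12, 1.91e-13, 1.93e-05 and 2.95e-10, edgeR). Madcam1, the gene of the sorting antigen, stood at 12.3 and 10.6 CPM in clusters 6 and 10, which hold these cells, against 1.48 and 0.588 CPM in clusters 0 and 2, which hold the basal epidermis-like cells of the total epithelium library. The gate, the clusters and the library cannot be told apart in this comparison, since the total epithelium was sequenced once.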

How the data were processed

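The authors' deposited tables hold raw UMI counts for each gene and cell, not normalized, per the file headers and their whole-number values. The submitters' processing notes name Cell Ranger, Seurat and mm10 and give no version. Annotation version, strand setting and cell filters: not given in the sources used here. Genes in both tables were used. The 9 genes, the gene lists, the markers and the comparisons were chosen with earlier results of these data known.

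Doublets were called per library with scrublet (scanpy 1.11.5, expected rate 0.05), which marked 0.265%, 0.127% and 1.12% of cells, and were removed. Leiden clustering (igraph 0.11.9) at resolution 1 used 1000 variable genes, 30 principal components and 20 neighbours. Its genes came from 7285 symbols drawn by a hash, without the 9 genes, the lists and the markers. Tests ran on 7371 genes, the other symbols plus these. The second set of clustering genes was drawn from those other symbols, so in that setting clustering and tests shared genes, though not the 9 members. A cluster was placode-like with at least 5 of 8 markers at 25% of the highest cluster's level, and suprabasal-like with 4 of 8 (Calml3, Cnfn, Dmkn, Krt1, Krt10, Krtdap, Ovol1, Sbsn) at that level. It was basal epidermis-like with 7 of 7 (Col17a1, Itga6, Itgb4, Krt14, Krt15, Krt5, Trp63) and melanoblast-like with 5 of 6 at 50%. Marker numbers were chosen with the clusters in view, and 3 of 13 clusters stayed unnamed.

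UMIs were summed per library and group of cells, and CPM is a gene's UMIs per 1000000 UMIs of that group. Intervals of levels and shares cover counting error only. The sums were tested in R 4.3.3 with edgeR 4.0.16 (quasi-likelihood, TMM scaling, filterByExpr), with Benjamini-Hochberg adjustment over all genes tested and a threshold of 0.05. The library was the block, since both groups of cells come from each library. DESeq2 1.42.0 was an alternative, beside other scaling, filters, clusterings, depths and the exclusion of each library. On simulated counts for placode-like against basal epidermis-like cells (6005 genes, 200 changed), 90.5% of changes of 1 and 100% of changes of 2 on the log2 scale were recovered. The simulation gave all genes the same dispersion and all libraries the same basal profile, without a difference between the gates. Its rates therefore check the code and do not give the power of the fits to the real counts. Named genes were the 9 members, list genes past the threshold, and the 8 genes most correlated with Fgf20 (4 for Fgfr1, Fgfr2 and Dusp6) by the lowest r of the 3 libraries, among genes found in at least 5% of thinned placode-like cells.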

Additional observations from a re-analysis of the deposited data

Results flagged for a closer look

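The contrast of placode-like with basal epidermis-like cells differed between the placode-enriched and the total epithelium libraries for 4 of the 9 members, by a test of the interaction (edgeR's quasi-likelihood test, 1 residual degree of freedom, Benjamini-Hochberg adjustment), where 122 of 6108 genes passed. The difference of the log2 fold change, placode-enriched minus total epithelium, was -1.16 for Dusp6, -1.52 for Fgfr1, -1.35 for Etv4 and 1.54 for Fgf20. The same test on Fgf20-undetected placode-like against basal epidermis-like cells gave -1.22 for Dusp6, -2.11 for Fgfr1 and -1.22 for Etv4, where 57 of 5344 genes passed. Both contrasts share the basal epidermis-like sums, in which these genes differed between the gates. The total epithelium is 1 library, so the gate and that library cannot be told apart here, and the fit assumes that it varied like the others. In each library Dusp6, Fgfr1 and Etv4 were higher in placode-like cells, so the direction did not differ. No member passed the interaction test in the other 3 contrasts of cells.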

How the results depend on the processing

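Of 636 recomputed member results, 554 kept direction and side of the threshold, 52 lost the call, 11 gained it and 19 changed sign, and the cause of these changes was not tested. Counts of genes called moved with the test: DESeq2 gave 1434 for placode-like against basal epidermis-like cells (2349), 1253 for suprabasal-like against basal (2145), 42 for Fgf20-detected against Fgf20-undetected (296), 485 for Fgf20-undetected placode-like against basal (1233) and 2 for Fgfr1-only against Fgfr2-only cells (59). With no replicate block, that is without the pairing of groups by library, these counts were 1268, 1435, 33, 688 and 4. Leaving out each library gave 1200 to 2815, 1085 to 1998, 57 to 332, 439 to 1434 and 0 to 105. The lowest count came without placode-enriched library 1 in all but the suprabasal contrast (without the total epithelium library) and the receptor split (without placode-enriched library 2).

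Thinning to 5000 UMIs gave 90 genes in the Fgf20 split and 4 in the receptor split, low-cycle cells 44 and 1, and the library and cluster block 95 in the Fgf20 split. Thinning to 10000 UMIs gave 1364 and the second set of clustering genes 1313 in the suprabasal contrast. Fgf20-undetected placode-like against basal cells had 759 with that second set, 775 at resolution 2 and 766 with unnamed clusters as basal. The second set was drawn from symbols that were also tested, so its counts of genes called are not independent of the clustering. The receptor split had 35 at resolution 0.5, 23 at resolution 2, 100 with placode-like clusters from 4 of 8 markers and 24 without cluster 7, the last 2 settings being chosen after seeing the data. The gate gave 91 without a filter and 138 at resolution 2 in placode-like cells (36), and 413 at resolution 2 in basal cells (812). The difference in Fgfr1 share was 26.5 points at resolution 2, 26.5 with 4 of 8 markers and 21.7 without cluster 7. The mean share of placode-like cells with Fgf20 (42.0% in the main setting) was 26.0% at 5000 UMIs, 52.1% unthinned, 33.4% with 4 of 8 markers and 48.8% without cluster 7.

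Changes of sign were as follows, in log2 fold change. In the suprabasal contrast Dusp6 came to 0.45 at resolution 0.5 and 0.96 with the second gene set, and Etv4 to 0.45 with that set. In the Fgf20 split Spry2 came to -0.069 at 2 or more UMIs against 0, Etv4 to 0.015 in low-cycle cells and Etv5 to 0.0061 with 4 of 8 markers. In the receptor split Spry2 ranged from -0.39 to 0.10 with each library left out, the highest without placode-enriched library 2, and came to 0.20 in low-cycle cells. Etv5 there ranged from -0.25 to 0.084 with each library left out, the highest without placode-enriched library 1, and came to 0.061 with the second gene set, 0.042 with 4 of 8 markers, 0.22 without cluster 7 and 0.33 in low-cycle cells. For the gate in placode-like cells, Dusp6, Spry2 and Spry4 came to 0.27, 0.24 and 0.46 at resolution 2, and Fgfr1, Etv4 and Etv5 to -0.11, -0.15 and -0.00015 at resolution 0.5. None of these values passed the test. Spry4 and Fgfr3 had few UMIs, and the total epithelium library held 56 placode-like cells and each placode-enriched library 21 suprabasal-like cells.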
